A study of Mus musculus with 8 samples.

Results

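Dorsomorphin, a small-molecule kinase inhibitor, was given to resting primary CD4+ T cells, and the messenger RNA of these cells was compared with that of resting cells without it across all genes. The comparison took 4 of the 8 Affymetrix arrays of the series, 2 per group. It covered the 13983 genes that were tested of 18193 named on the array, each read from 1 probe set, the one brightest on average over the 8 arrays. All cells were from BALB/c mice. In the dorsomorphin group, cells cultured for 1 h without antibodies then received 4 µM dorsomorphin for 6 h, and the control group received the solvent DMSO over the same times. The other 4 arrays held cells given plate-bound anti-CD3 and soluble anti-CD28 for 1 h before the same 6 h, 2 with dorsomorphin and 2 with DMSO. The labels give no mouse age or sex and no purification method, and they do not say whether replicates were separate cultures or animals. The p-values therefore speak only of how far arrays of 1 group lay apart, which may be technical. That spread was pooled over all 4 groups, the stimulated arrays included. Each array measured a whole culture, so fewer cells of a type and less RNA per cell cannot be told apart.

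Bone morphogenetic proteins (BMPs) bind pairs of type I and type II receptor kinases at the cell surface. The type I receptor phosphorylates SMAD proteins, which enter the nucleus and activate genes such as those of the Id proteins. Dorsomorphin blocks these type I receptors and also inhibits AMPK, a kinase that senses low cellular energy, along with other kinases. In a resting CD4+ T cell the T cell receptor and its CD3 chains wait at the surface, and the quiescent state is held in part by low growth signalling.

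Signal is given on the deposited linear scale, on which each array had a trimmed mean of 500.0, and a log2 difference is the dorsomorphin mean minus the control mean of log2 signal, with limma's standard error (SE, n = 2 arrays per group). A gene was said to rise or fall where limma's Benjamini-Hochberg adjusted p over all 13983 genes was under 0.05. By that rule 268 genes rose (1.92%) and 1557 fell (11.1%), 13.1% in all, and 4389 had an unadjusted p under 0.05. With control replicate 1 left out 0 genes passed limma's threshold (3004 at an unadjusted p under 0.05), and with control replicate 2 left out 0 (2838). Without dorsomorphin replicate 1 the counts were 78 rises and 1094 falls, and without replicate 2 they were 9 and 201. The smallest adjusted p was 0.00855. In each of these 1825 genes both dorsomorphin arrays lay on 1 side of both control arrays, which was also so for 3248 genes upward (23.2%) and 5917 downward (42.3%) among all tested. Of the rises, 51 were 4-fold or more, and of the falls, 689. Across genes, which are not independent replicates, the 2 arrays of a group correlated at 0.942 with dorsomorphin and at 0.953 without it, and the median SD of a gene was 0.285 log2 units between dorsomorphin arrays and 0.173 between control arrays.

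The split between rises and falls depended on how the arrays were brought to a common level, and the difference changed with the level of a gene. The median log2 difference of all tested genes was -0.24 as deposited. It was lowest, at -0.78, for genes with a mean log2 signal of 7 to 8, and highest, at 0.29, for genes at 12 to 13. Dorsomorphin replicate 1 minus replicate 2 also gave a curve over level, from 0.32 at 7 to 8 to -0.22 above 13. Cyclic loess gave 409 rises (2.92%) and 736 falls (5.26%), median-deviation centring 378 (2.7%) and 918 (6.57%), and median centring 2190 (15.7%) and 596 (4.26%). Falls made up 85.3% of the calls as deposited, 64.3% after cyclic loess, which removes such curves, 70.8% after centring on the median of each gene's deviations, and 21.4% after centring each array on its own median. The corresponding medians of all genes were 0.05, 0.05 and 0.60. Of the calls, 196 rises (1.4%) and 523 falls (3.74%) were made with the same direction under all 4 scalings, and 0 turned round under any of them. The 2 centrings move all genes by the same amount, here upward, so they could not reverse a rise. The smallest called fall, 0.853 log2 units, was larger than either move, so they could not reverse a fall. Median centring kept all 268 rises, median-deviation centring 254 and cyclic loess 202, so for rises the mark rests mainly on cyclic loess. Because the split depended on the scaling, list medians below are given relative to the median of all tested genes. Named genes that kept the call under all 4 scalings are marked. Negative differences made up 59.7% of all genes as deposited, 47.9% after cyclic loess and 29.6% after median centring.

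**Figure D1:**
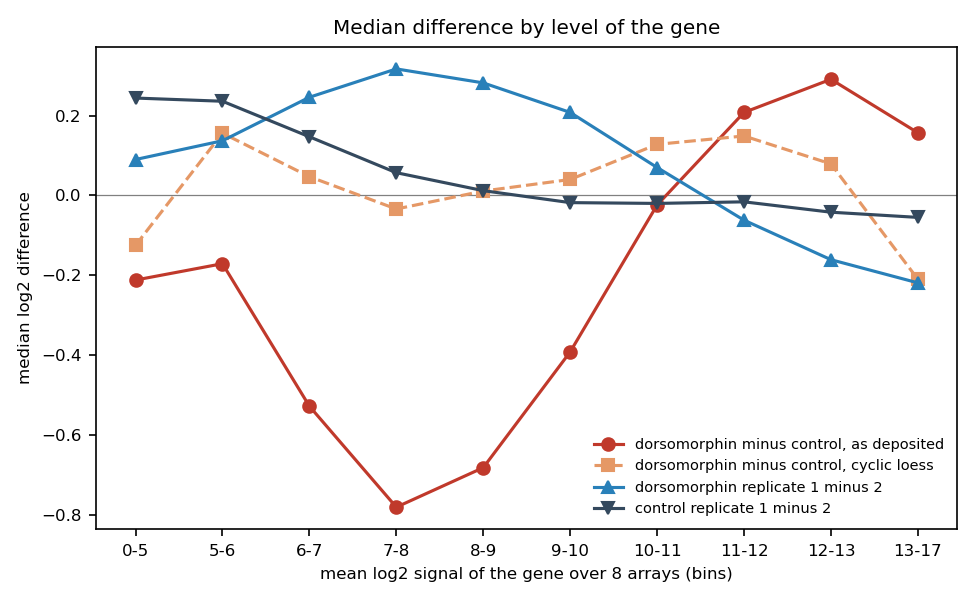
Median log2 difference of tested genes (y axis) in bins of their mean log2 signal over 8 arrays (x axis), for dorsomorphin minus control as deposited and after cyclic loess, and for replicate 1 minus replicate 2 within the dorsomorphin and the control group. The deposited curve dips to -0.78 at 7 to 8 and reaches 0.29 at 12 to 13, while the loess curve stays between -0.21 and 0.16.

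Defining T cell genes were above the floor on all 4 arrays, Cd3d among them, and markers of other cells were also detected. The summed signal of 23 myeloid and dendritic cell markers was 7652 and 7797 on the dorsomorphin arrays, against 13766 and 22779 on the control arrays, with 20 and 19 markers above the working floor (a signal of 37.3, the 40th percentile of all values) against 22 and 21. For 12 natural killer and CD8 T cell markers the sums were 1105 and 796 with dorsomorphin, against 2752 and 2254 in control cells. Sums of 13 B cell markers overlapped, at 4726 and 12150 with dorsomorphin and 8006 and 13358 in control cells. Cd79a, a defining B cell gene, was at 3.82 and 13.7 with dorsomorphin and at 52.0 and 43.7 in control cells. The summed signal of 15 T cell receptor, CD3 and coreceptor genes was itself 67604 and 55990.5 with dorsomorphin, against 123393 and 123085 in control cells. The part of these other cells in any result was not tested.

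The CD3 complex fell with dorsomorphin. It carries the signal of the T cell receptor into the cell through 4 kinds of chain, gamma, delta, epsilon and zeta, and all 4 of their genes fell. Cd3g, the gamma chain, had a signal of 1720.5 and 853 with dorsomorphin, against 14174 and 13421 in control cells. Cd3e, the epsilon chain, had 1717 and 788 with dorsomorphin and 5818 and 5023 in control cells. Cd247, the zeta chain, gave 2038 and 2172 with dorsomorphin, against 8426 and 9086 without it. For each of these 3 genes the brighter dorsomorphin array was far below the dimmer control array. Cd3d, the delta chain, was nearer, at 11645 and 9033 with dorsomorphin and 21655 and 22438 in control cells. The log2 differences were -3.51 ± 0.35 for Cd3g (limma, adjusted p = 0.0109), -2.22 ± 0.46 for Cd3e (adjusted p = 0.0354), -2.06 ± 0.32 for Cd247 (adjusted p = 0.0192) and -1.10 ± 0.23 for Cd3d (adjusted p = 0.0350). Cd3g and Cd3e were called under all 4 scalings, Cd247 under 3 and Cd3d under 2.

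The genes Cd3g, Cd3d and Cd3e lie side by side on mouse chromosome 9, and Cd3g and Cd3d are read in opposite directions, with 854 bases between their promoter windows. These 3 promoters are shown because the 3 neighbouring genes fell together, from RefSeq with build GRCm38.p6, each running 250 bases before to 50 after the start on the gene's own strand. Capitals mark E-boxes (letters CANNTG, the same on both strands), the sequence bound by the E proteins that Id proteins hold back. Cd3g is at chr9:44980382-44980681 on the minus strand, Cd3d at chr9:44981536-44981835 on the plus strand and Cd3e at chr9:45009562-45009861 on the minus strand.
Cd3g promoter: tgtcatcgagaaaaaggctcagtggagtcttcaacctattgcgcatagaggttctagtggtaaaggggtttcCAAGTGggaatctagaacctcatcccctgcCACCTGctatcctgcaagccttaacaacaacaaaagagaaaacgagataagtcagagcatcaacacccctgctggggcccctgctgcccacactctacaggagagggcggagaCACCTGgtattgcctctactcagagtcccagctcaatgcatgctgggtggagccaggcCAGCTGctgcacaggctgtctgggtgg
Cd3d promoter: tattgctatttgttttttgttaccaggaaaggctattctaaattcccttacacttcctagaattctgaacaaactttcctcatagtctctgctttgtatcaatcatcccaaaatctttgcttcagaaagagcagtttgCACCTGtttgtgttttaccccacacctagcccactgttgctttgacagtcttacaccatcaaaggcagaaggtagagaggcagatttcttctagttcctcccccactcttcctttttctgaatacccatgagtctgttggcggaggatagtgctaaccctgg
Cd3e promoter: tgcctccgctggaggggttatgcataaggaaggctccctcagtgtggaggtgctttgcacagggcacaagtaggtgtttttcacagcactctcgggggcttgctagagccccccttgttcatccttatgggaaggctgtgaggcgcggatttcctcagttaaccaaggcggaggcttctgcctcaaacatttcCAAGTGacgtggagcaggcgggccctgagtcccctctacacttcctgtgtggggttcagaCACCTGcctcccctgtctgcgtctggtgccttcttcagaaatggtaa
The windows hold 4 E-boxes in Cd3g, 1 in Cd3d and 2 in Cd3e. Such a match is common, since 72.3% of 32851 mouse promoter windows of this length hold at least 1, and it is a description of the letters only.

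Around the CD3 chains, the rest of the receptor list fell in part. Of its 15 tested members 0 rose, 7 fell (46.7%, beside 13.1% of all genes called in either direction) and 8 did not pass. The list's median was -1.16 relative to all genes, and -1.54 after cyclic loess. Thy1, a glycolipid-anchored surface protein of T cells, had 1325 and 985 with dorsomorphin, against 4732 and 5215 in control cells, and fell by 2.12 ± 0.25 log2 units (limma, adjusted p = 0.0119). Cd5, which restrains receptor signalling, was at 2206 and 1534 with dorsomorphin and 8119 and 7521 in control cells and fell by 2.09 ± 0.29 (limma, adjusted p = 0.0151). Thy1 and Cd5 were called under all 4 scalings. Ptprcap, a partner of the CD45 phosphatase, fell by 1.83. Cd4 itself, the coreceptor that gives these cells their name, had a log2 signal of 9.44 and 7.97 with dorsomorphin, against 11.02 and 10.78 in control cells. Its groups did not overlap but its difference of -2.20 ± 0.61 did not pass (limma, adjusted p = 0.0685). The costimulatory receptor gene Cd28 showed 11528 and 9056 with dorsomorphin and 12485 and 13178 in control cells, and the CD45 gene Ptprc had a log2 difference of -0.23. Neither passed.

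**Figure D2:**
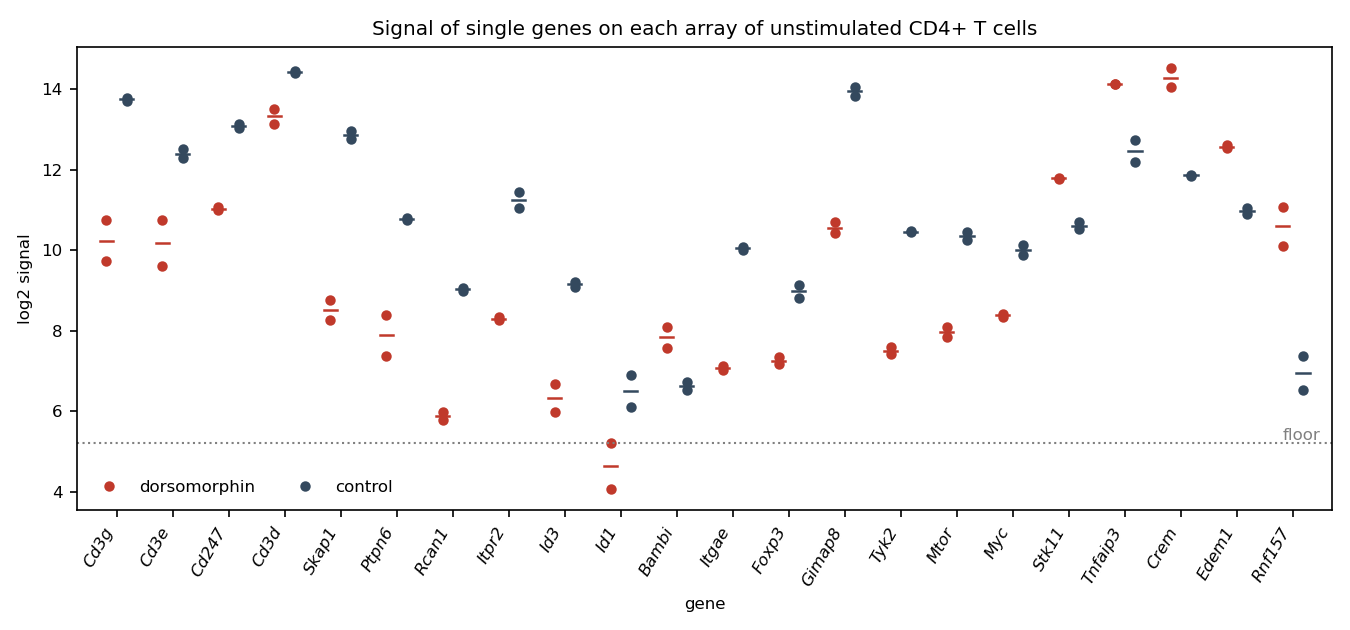
Log2 signal (y axis) of 22 genes on the 2 dorsomorphin arrays (red, left of each pair) and the 2 control arrays (dark blue, right), each point 1 array and each bar the group mean. The dotted line is the working floor at log2 5.22. The 4 CD3 chain genes at the left lie lower with dorsomorphin, and Stk11, Tnfaip3, Crem, Edem1 and Rnf157 at the right lie higher.

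Beneath the receptor, 6 of 21 tested genes of proximal signalling fell (28.6%, beside 13.1% of all genes called), 0 rose and 15 did not pass. The list median was -0.88 relative to all genes and -0.95 after cyclic loess. Skap1, an adaptor that links the receptor to integrin activation, was at 433 and 311 with dorsomorphin, against 6987 and 8024 in control cells, and fell by 4.35 ± 0.46 log2 units (limma, adjusted p = 0.0109). Its 2 other measured probe sets disagreed, at -1.58 and 2.26. Ptpn6, the SHP-1 phosphatase that dampens receptor signals, had 337.5 and 167 with dorsomorphin and 1736 and 1789.5 in control cells, a log2 difference of -2.89 ± 0.47 (limma, adjusted p = 0.0204) that its other measured probe set shared (-1.65). Ubash3a, another negative regulator, fell by 2.04, with its other measured probe set at 0.82. These 3 were called under all 4 scalings. The kinase gene Prkcq fell by 1.47, the exchange factor gene Vav1 by 1.37 and Themis, a gene of T cell development, by 1.34. Members that did not pass included Zap70 (-0.62), the kinase recruited to the zeta chain, Lat (-1.07), the scaffold downstream of it, and Fyn (-0.08).

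Calcium signalling from the receptor runs through inositol trisphosphate receptors, which release stored calcium, and calcineurin, which activates NFAT factors. Of 16 tested genes of this branch 0 rose, 4 fell (25.0%, beside 13.1% of all genes called) and 12 did not pass. Their median was -0.10 relative to all genes, so the list as a whole stood near the other genes, while single members fell far. Rcan1, a calcineurin regulator that NFAT induces, had 63.7 and 55.4 with dorsomorphin, against 535 and 510.4 in control cells, and fell by 3.14 ± 0.26 log2 units (limma, adjusted p = 0.00975). Itpr2, a calcium release channel, was at 307 and 323 with dorsomorphin and 2108 and 2814 in control cells, and its 5 other measured probe sets ran from -3.02 to 0.54. Itpr3, a related channel, was at 407 and 189 with dorsomorphin, against 1416 and 1404 in control cells. The log2 differences were -2.95 ± 0.38 for Itpr2 and -2.35 ± 0.41 for Itpr3 (limma, adjusted p = 0.0132 and 0.0245). Rcan1, Itpr2 and Itpr3 were called under all 4 scalings. Nfatc2, an NFAT factor, fell by 1.90 on its brightest probe set, with 5 others between -0.36 and 1.76. Nfatc1, Ppp3ca, a calcineurin catalytic subunit, and the calcium channel gene Orai1 did not pass, at 0.40, -0.34 and 0.43.

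The BMP pathway is the better known target of the compound. Among receptors and SMADs 1 of 16 tested genes rose and 0 fell (6.25%, beside 13.1% of all genes called). The other 15 did not pass, and the list's median was 0.41 relative to all genes. The 1 that rose was Acvr1, which encodes a type I BMP receptor that dorsomorphin inhibits. Acvr1 was at 202 and 198 with dorsomorphin, against 95.8 and 95.02 in control cells, a rise of 1.07 ± 0.21 log2 units (limma, adjusted p = 0.0320), called under all 4 scalings. Another type I receptor gene, Bmpr1a, the type II receptor gene Bmpr2 and the transducer genes Smad1 and Smad5 did not pass, at -0.24, -0.23, -0.54 and 0.14. Bmpr1b and Acvrl1 were too dim to be tested.

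Among 14 tested BMP-SMAD target genes 1 rose and 1 fell (14.3%, near the 13.1% of all genes called). The other 12 passed in neither direction. Of the 14 differences 7 were negative, beside 59.7% of all genes. Id3, an inhibitor of E proteins and a direct SMAD target, had 63.6 and 103 with dorsomorphin, against 596 and 549 in control cells. Its log2 difference of -2.82 ± 0.33 was called under all 4 scalings (limma, adjusted p = 0.0121). Bambi, a decoy receptor that BMP signals normally induce, went the other way, at 190.5 and 276 with dorsomorphin and 92.0 and 106 in control cells. Its rise of 1.21 ± 0.26 was also called under all 4 scalings (limma, adjusted p = 0.0365). Id1 was dim, at 37.0 and 16.9 with dorsomorphin, both under the floor, against 119.6 and 69.6 in control cells. That made it at least 2.45-fold lower, and it did not pass (limma, adjusted p = 0.0659). Id2, the related inhibitor that supports several lymphocyte fates, was at 3539 and 2419 with dorsomorphin and 7619 and 5629 in control cells, a difference of -1.16 ± 0.33 that did not pass (limma, adjusted p = 0.0700). Smad7, the inhibitory SMAD of the feedback loop, had 4914 and 4757 with dorsomorphin, against 4704 and 4067 in control cells, and its groups differed by 0.14 ± 0.44. The other inhibitory SMAD gene, Smad6, lay under the floor on all 4 arrays, at 36.5 and 30.3 with dorsomorphin and 14.1 and 16.03 in control cells, and was not tested. Across the 8 tested Id and E protein genes 7 differences were negative as deposited and 7 after cyclic loess, beside 59.7% and 47.9% of all genes. Of these 8 genes 1 passed (12.5%, near the 13.1% of all genes called), Id3. The E protein genes Tcf3, Tcf4 and Tcf12 stood at -0.999, -1.07 and 0.41 and did not pass.

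AMPK, the other known target, is a trimer of a catalytic alpha, a beta and a gamma subunit that upstream kinases activate. Of 17 tested genes for its subunits, upstream kinases and substrates 1 rose and 1 fell (11.8%, near the 13.1% of all genes called). The other 15 did not pass. Stk11, the LKB1 kinase that activates AMPK, was at 3573 and 3502 with dorsomorphin, against 1669 and 1478 in control cells. Prkag2, a gamma subunit, was at 136 and 68.0 with dorsomorphin and 715 and 749.5 in control cells. Stk11 rose by 1.17 ± 0.21 and Prkag2 fell by 2.93 ± 0.35 log2 units (limma, adjusted p = 0.0250 and 0.0122), both under all 4 scalings and with every other measured probe set of the same sign. The alpha subunit gene Prkaa1, at 515 and 371 with dorsomorphin and 751 and 749 in control cells, did not pass (-0.78 ± 0.33, adjusted p = 0.171). Fatty acid oxidation, which AMPK promotes, had 6 of 17 tested genes down and 0 up (35.3%, beside 13.1% of all genes called). Cpt1a, the carnitine palmitoyltransferase that admits fatty acids to mitochondria, had 239.8 and 188 with dorsomorphin, against 911 and 1043 in control cells, and the enzymes Hadh, Acaa2, Etfb, Echs1 and Decr1 fell by 1.75, 1.52, 1.40, 1.16 and 1.10 log2 units. The 2 other measured probe sets of Hadh disagreed, at -1.52 and 0.13. After cyclic loess 0 of the 6 falls in fatty acid oxidation passed. The list's median was -0.42 relative to all genes as deposited and -0.37 after cyclic loess.

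Of 20 tested mTORC1 and PI3-kinase regulators, the growth signalling that AMPK opposes, 3 fell and 0 rose (15.0%, near the 13.1% of all genes). Mtor, the kinase itself, was at 273 and 230.2 with dorsomorphin, against 1229 and 1404 in control cells, a log2 difference of -2.39 ± 0.23 (limma, adjusted p = 0.0109) called under all 4 scalings. Its other 2 measured probe sets ran from -0.55 to 1.71, so the fall rests on the brightest. Inpp5d, the SHIP1 lipid phosphatase, fell by 1.64, and Tsc1, an inhibitor of mTORC1, by 1.16 with its other probe sets at 0.95 and 2.73. Glycolysis had 2 falls among 16 tested genes (12.5%, near the 13.1% of all genes called), Slc2a3, a glucose transporter (-1.45), and Pfkm, a phosphofructokinase (-3.12). Neither passed after cyclic loess. In cholesterol and fatty acid synthesis Insig2, a sterol sensor, rose to 2009 and 2199.5 with dorsomorphin, against 782 and 831 in control cells (1.38 ± 0.23, adjusted p = 0.0214). Elovl6, a fatty acid elongase, was at 35.9 and 11.8 with dorsomorphin, both under the floor, and at 201 and 292 in control cells, at least 6.503-fold lower. Its other 2 measured probe sets disagreed (-1.19 and 1.23). Insig2 and Elovl6 were called under all 4 scalings.

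Integrins and adhesion molecules tie T cells to tissues and to other cells. Among 18 tested genes 4 fell and 1 rose (27.8%, beside 13.1% of all genes called). All of these calls held under the 4 scalings, where 3.74% of all genes fell and 1.4% rose. The list's median was -0.62 relative to all genes. Itgae, the CD103 chain that binds epithelial cells, had 132 and 139 with dorsomorphin, against 1094 and 1026 in control cells. The LFA-1 integrin, by which T cells grip antigen-presenting cells, is made of the chains Itgal and Itgb2. Itgal was at 970.3 and 536 with dorsomorphin and 3578 and 3994 in control cells, and Itgb2 was at 1972 and 1204 with dorsomorphin and 6424.5 and 5784 in control cells. Icam2, an LFA-1 ligand, was at 731.5 and 521 with dorsomorphin, against 2463 and 2820.2 in control cells. The log2 differences were -2.97 ± 0.32 for Itgae, -2.39 ± 0.32 for Itgal, -1.98 ± 0.33 for Itgb2 and -2.09 ± 0.28 for Icam2 (limma, adjusted p between 0.0111 and 0.0211). So both chains and a ligand of LFA-1 were lower. Itga5, a fibronectin receptor chain, rose by 1.32, at 109 and 108 with dorsomorphin and 52.3 and 36.4 in control cells.

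The Gimap genes encode GTPases of lymphocytes, several of which support T cell survival, and form a cluster on mouse chromosome 6. All 8 of the 8 tested Gimap genes had a negative difference as deposited and after cyclic loess, beside 59.7% and 47.9% of all genes. Of them 3 fell (37.5%, beside 11.1% of all genes). Gimap8 was at 1668 and 1376 with dorsomorphin, against 14618 and 17026 in control cells (-3.38 ± 0.33, adjusted p = 0.0109). Gimap5, whose loss shortens T cell life in rodents, was at 207 and 164 with dorsomorphin and 655 and 608.5 in control cells (-1.78 ± 0.26, adjusted p = 0.0174). Gimap7 fell by 1.27. Gimap8 and Gimap5 were called under all 4 scalings, and the list's median was -0.92 relative to all genes and -1.20 after cyclic loess.

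Regulatory T cell genes, which mark the suppressive CD4+ subset, fell in 5 of 15 cases (33.3%, beside 13.1% of all genes called). Of the others 0 rose and 10 did not pass, and the list's median was -1.10 relative to all genes. Beside Itgae, the actin-capping gene Capg fell, at 652 and 489 with dorsomorphin, against 3010.3 and 2961 in control cells (-2.40 ± 0.24, adjusted p = 0.0109). Itgae and Capg were the 2 called under all 4 scalings. Tnfrsf18, the GITR receptor, fell by 1.44, Ikzf4, the Eos factor, by 1.59 and Nrp1, neuropilin, by 1.34. Foxp3, the lineage factor, was at 165 and 144 with dorsomorphin and 565 and 451 in control cells, apart but short of the threshold (adjusted p = 0.0523). Ctla4 and Ikzf2, also of this subset, were at 0.40 and -0.19 and did not pass.

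Interleukin receptors carry the cytokine signals that steer helper T cells. Of 20 tested genes 4 fell (20.0%, beside 13.1% of all genes called), 0 rose and 16 did not pass. The list's median was -0.21 relative to all genes as deposited and 0.08 after cyclic loess, of the other sign. Il18r1, a chain of the receptor through which interleukin 18 supports type 1 helper cells, was at 534.5 and 457 with dorsomorphin, against 4152 and 5979 in control cells, a log2 difference of -3.33 ± 0.65 (limma, adjusted p = 0.0298). Il27ra was at 697 and 541 with dorsomorphin and 2866 and 2915 in control cells, a log2 difference of -2.23 ± 0.23 (limma, adjusted p = 0.0109). Both were called under all 4 scalings. The 2 interleukin 10 receptor chains, Il10ra and Il10rb, fell by 1.56 and 1.32. Downstream, 2 of 19 tested JAK, STAT and SOCS genes fell (10.5%, under the 13.1% of all genes called). Tyk2, a kinase shared by interferon and interleukin 12 receptors, was at 195 and 171 with dorsomorphin, against 1425 and 1405 in control cells (-2.95 ± 0.25, adjusted p = 0.00975), but its other measured probe set stood at 0.16. Stat6, the factor of interleukin 4 signalling, fell by 1.41, a direction its other probe set shared (-1.67). Among chemokine receptors 1 of 14 tested genes fell (7.14%, beside 13.1% of all genes called), Cxcr5 (-1.502), which guides follicular cells.

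Of 21 costimulatory and checkpoint genes 4 fell and 0 rose (19.0%, beside 13.1% of all genes called). Cd27, a survival receptor of naive cells, was at 1446 and 902 with dorsomorphin, against 4189.5 and 4232 in control cells, and fell by 1.88 ± 0.33 (limma, adjusted p = 0.0236) under all 4 scalings. The inhibitory receptor gene Btla fell by 1.80 and Ly9, of the SLAM family, by 1.19. Among 21 genes of quiescence and lymph node homing 3 fell and 0 rose (14.3%, near the 13.1% of all genes called). Dapl1, high in naive T cells, was at 195 and 83.0 with dorsomorphin and 4934 and 4406 in control cells, a log2 difference of -5.20 ± 0.46 (limma, adjusted p = 0.00975) called under all 4 scalings. Klf3 fell by 2.07 on its brightest probe set, with 6 others between -1.51 and 1.29, and Bach2, a repressor of effector genes, fell by 1.12. The homing genes Ccr7 and S1pr1 and the quiescence factor Klf2 did not pass, at -0.16, -0.17 and -0.64. Among 20 lineage transcription factors 19 differences were negative as deposited and 15 after cyclic loess, beside 59.7% and 47.9% of all genes, and 1 (5.0%, beside 11.1% of all genes falling) passed, that of Prdm1, the Blimp-1 repressor (-1.66).

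**Figure D3:**
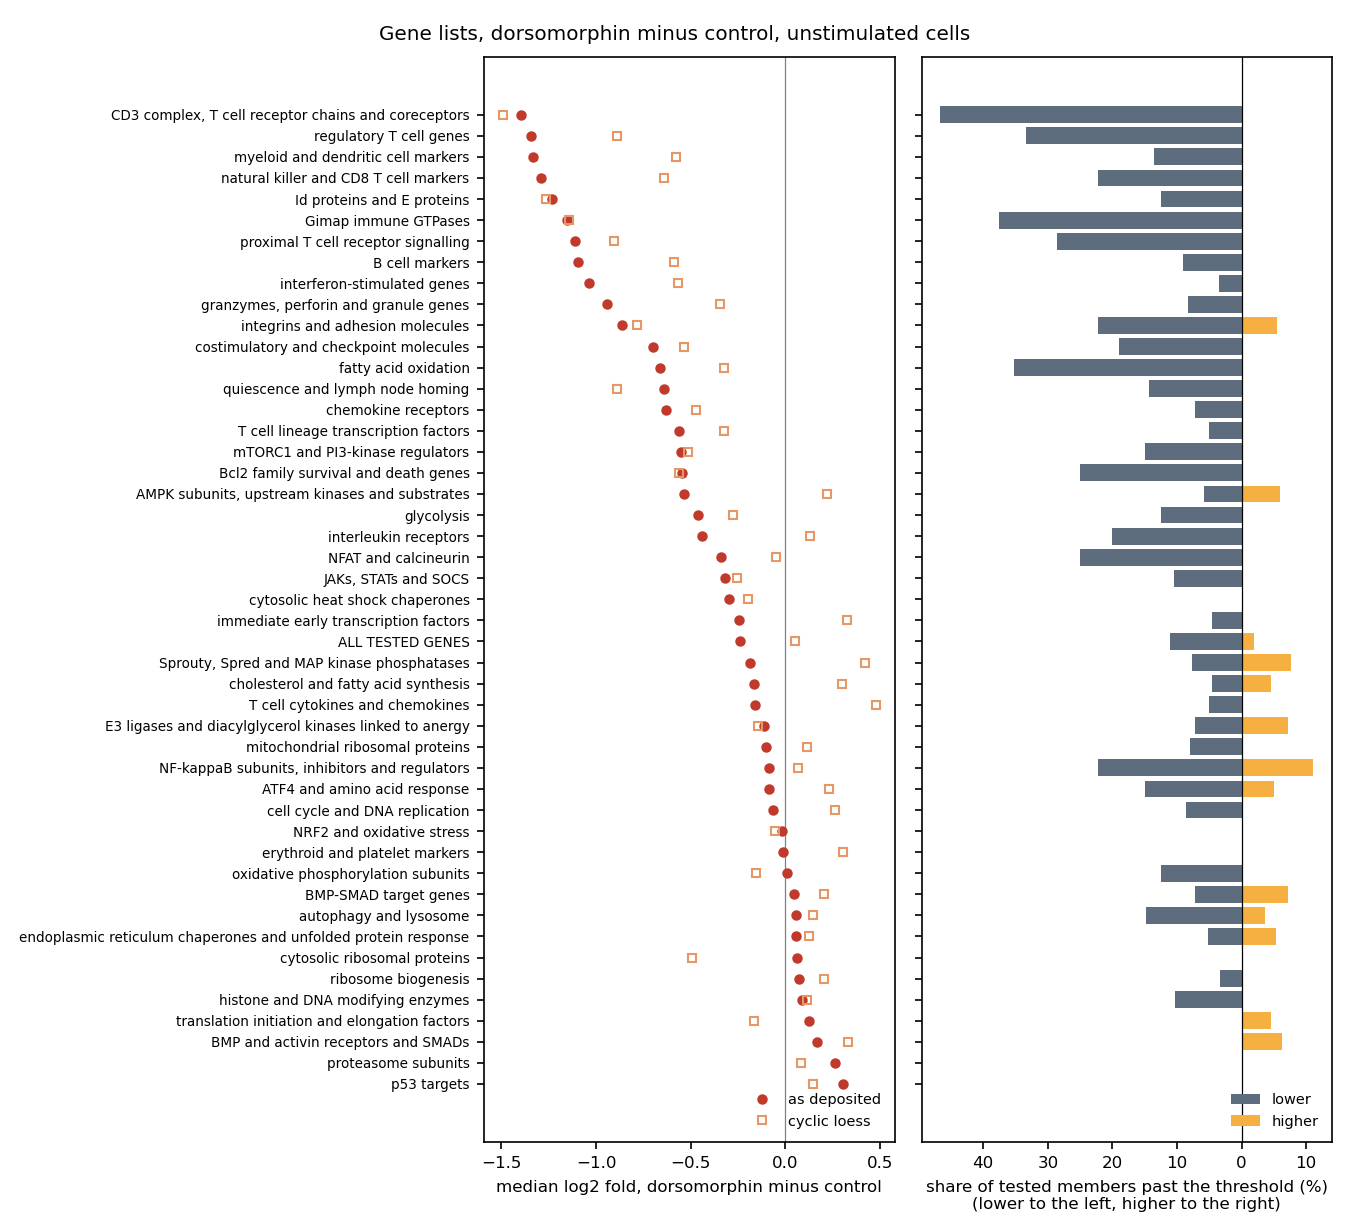
Left, median log2 difference (x axis, dorsomorphin minus control) of each gene list, as deposited (filled) and after cyclic loess (open). Right, share in percent of tested members that fell (drawn to the left) or rose (to the right). Lists run from the lowest deposited median at the top, the CD3 list, followed by regulatory T cell genes and myeloid markers, and all tested genes, at -0.24 with 11.1% falls, are marked in capitals.

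Regulators of NF-kappaB, a family of factors activated by the T cell receptor and by inflammatory signals, went both ways. Of 18 tested genes 2 rose and 4 fell (33.3%, beside 13.1% of all genes called), with a median of 0.15 relative to all genes. Tnfaip3, the A20 enzyme that shuts the pathway off, was at 17924 and 17890.2 with dorsomorphin, against 6875.5 and 4653 in control cells (1.66 ± 0.36, adjusted p = 0.0388), and its other measured probe set rose more (2.28). Rel, the c-Rel subunit, was at 726 and 1089.7 with dorsomorphin and 331 and 234 in control cells, a rise of 1.68 ± 0.37 (limma, adjusted p = 0.0402). Ikbke, a kinase of the innate arm, fell far, at 250.3 and 226 with dorsomorphin, against 7070.3 and 7024 in control cells (-4.89 ± 0.37, adjusted p = 0.00975). Rel and Ikbke were called under all 4 scalings and Tnfaip3 under 3, losing the call after cyclic loess. The inhibitor gene Nfkbie fell by 1.61, the kinase gene Ikbkb by 0.98 and the survival ligase gene Birc3 by 1.23, with Birc3's other measured probe set at 0.26. The feedback inhibitor gene Nfkbia had a log2 difference of -0.05.

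Genes that respond first to receptor stimulation were also compared in these unstimulated cells. Of 22 immediate early transcription factors 0 rose, 1 fell (4.5%, beside 13.1% of all genes called) and 21 did not pass. Their median was -0.01 relative to all genes. The 1 that fell was Myc, which drives growth, at 327 and 342 with dorsomorphin, against 1115 and 952 in control cells (-1.62 ± 0.21, adjusted p = 0.0139), called under 3 of 4 scalings. Fos, Egr1 and Nr4a1 did not pass, at -0.53, -1.30 and -0.52. Among 13 Sprouty, Spred and MAP kinase phosphatase genes 1 rose and 1 fell (15.4%, near the 13.1% of all genes called). Dusp16 rose, at 504 and 893 with dorsomorphin, against 253 and 135 in control cells (limma, 1.86 ± 0.43, adjusted p = 0.0442), called under all 4 scalings. Dusp2, a nuclear phosphatase of lymphocytes, fell by 1.52. Of 20 cytokine and chemokine genes 1 fell and 0 rose (5.0%, beside 13.1% of all genes called). Ccl3, a chemokine, was at 17.4 and 9.44 with dorsomorphin, both under the floor, and 73.4 and 93.8 in control cells, at least 2.23-fold lower. Il2 and Ifng were at -0.25 and -1.13 and did not pass.

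Of the called genes with both group means above the floor, clone and accession symbols left out, the E3 ligase gene Rnf157 rose most. It was at 1109 and 2158 with dorsomorphin, against 92.9 and 167.5 in control cells. Its rise of 3.63 ± 0.48 log2 units (limma, adjusted p = 0.0140) was shared in sign by its 4 other measured probe sets (0.20 to 3.34). Ramp3, which modifies the calcitonin receptor family, followed at 4229.7 and 6549 with dorsomorphin and 1033 and 745 in control cells. Taf15, an RNA-binding protein of the FET family, was at 2594 and 4511 with dorsomorphin and 438 and 748 in control cells. Ramp3 and Taf15 differed by 2.59 ± 0.47 and 2.58 ± 0.38 (limma, adjusted p = 0.0257 and 0.0170). Mir22hg, the host transcript of a microRNA, rose to 2376 and 2882 with dorsomorphin, against 553 and 458.5 in control cells (2.38 ± 0.25). Rbm14, a nuclear RNA-binding protein, rose by 2.14 and the ubiquitin ligase gene Wwp1 by 2.04, each with all other measured probe sets of the same sign (1.17 to 1.95 for Rbm14, 0.70 to 0.92 for Wwp1). Crem, a cyclic AMP responsive factor, was at 17011 and 23606 with dorsomorphin and 3726 and 3711 in control cells (2.43 ± 0.48), with its other probe sets between -0.14 and 1.47. For the remaining 5 of the 12 largest such rises the probe sets of the gene disagreed in sign. Auh, an enzyme of leucine breakdown, rose by 2.37 with others from -4.10 to 2.57, Eps15l1, an endocytic adaptor, by 2.43 with -1.44 and 0.18, and the nucleoporin gene Nup50 by 2.28 with -0.30 and 0.19. Dock8, an exchange factor, rose by 2.01 with -3.48 and 0.40, and Mrs2, a mitochondrial magnesium channel, by 2.08 with -0.74. All of these 12 but Crem were called under all 4 scalings. In all, 89 of the 179 rises with another measured probe set had all of them with the same sign, and 544 of 823 falls did.

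The largest falls were ranked in the same way, among called genes with both group means above the floor. Carns1, which makes the dipeptide carnosine, was at 82.7 and 48.0 with dorsomorphin, against 2576 and 2400.2 in control cells, a log2 difference of -5.30 ± 0.75 (limma, adjusted p = 0.0158). Arhgap15, a brake on Rac GTPases, was at 250.5 and 185 with dorsomorphin and 5598 and 5547 in control cells (-4.69 ± 0.82), and its other probe set fell alike (-4.05). Aff3, a nuclear protein of lymphoid cells, was at 202 and 116 with dorsomorphin and 3501.5 and 3711 in control cells (-4.56 ± 0.31). Arhgef18 was at 455 and 352 with dorsomorphin and 8447 and 8280.4 in control cells, with both its other measured probe sets lower as well (-4.46 and -1.48). The flippase gene Atp8a1 fell by 4.24, with 4 others from -4.82 to -1.002. The rest of the 12 largest such falls, beside Dapl1, Ikbke and Skap1, were Tspan32, a tetraspanin (-4.61, other probe set 0.10), the dynein chain gene Dnah8 (-4.51), the PDZ-LIM gene Pdlim4 (-4.25) and Atp8b4, another flippase (-4.24, other probe set 1.57). All 12 but Dnah8 and Pdlim4 were called under all 4 scalings.

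Some genes left the measurable range, so that the change is a lower bound. With both dorsomorphin arrays under the floor, Abcc4, a drug and cyclic nucleotide exporter, was at 31.4 and 36.4 against 444 and 651 in control cells, at least 14.4-fold lower. Ralgapa2 was at least 12.1-fold lower, Hlcs, the enzyme that attaches biotin, at least 9.78-fold, Eri3, an exoribonuclease, at least 9.43-fold and Plekha7 at least 8.69-fold. Upward, with both control arrays under the floor, the bounds were small. Col25a1, a collagen, was at 101 and 86.7 with dorsomorphin and 17.6 and 25.5 in control cells, at least 2.51-fold higher, and Slc19a3, Ucma, Sftpc and Lhfpl4 had bounds of 2.42, 2.24, 2.16 and 2.04. Of these 10 genes all but Hlcs were called under all 4 scalings. In all, 172 falls and 47 rises had 1 group under the floor.

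Enzymes that modify chromatin gave 3 falls, all under the 4 scalings, and 0 rises among 29 tested genes (10.3%, under the 13.1% of all genes). Setdb1, a histone H3 lysine methyltransferase, was at 172 and 192 with dorsomorphin, against 985 and 854 in control cells (-2.34 ± 0.22, adjusted p = 0.0109). Kdm6b, a histone demethylase, was at 671 and 601 with dorsomorphin and 2457 and 2426 in control cells (-1.94 ± 0.26, adjusted p = 0.0144). Both had all other measured probe sets lower. Kmt2d, another methyltransferase, fell by 2.47 while its other probe set stood at 0.92. In the cell cycle list 3 of 35 tested genes fell and 0 rose (8.57%, under the 13.1% of all genes called). Ccnd2, the D cyclin of lymphocytes, was at 1029 and 857.5 with dorsomorphin, against 5018 and 7980.1 in control cells (-2.75 ± 0.47, adjusted p = 0.0228), and all 6 other measured probe sets were lower (-2.48 to -1.83). It was called under all 4 scalings. Its partner kinase gene Cdk4 fell by 1.46 and E2f2 by 1.61, while Mki67 and Pcna, genes of dividing cells, were at -0.32 and -0.10. Of 12 Bcl2 family genes 3 fell (25.0%, beside 13.1% of all genes called). Bcl2, the survival gene, was at 278 and 128.5 with dorsomorphin, against 1534 and 1417 in control cells (-2.96 ± 0.62, adjusted p = 0.0355), with 4 other probe sets from -2.81 to -0.66, and the death genes Bid and Bik fell by 1.501 and 1.75. Mcl1 and Bcl2l11, a survival and a death gene, did not pass (-0.64 and -0.45).

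Calls in the stress lists ran from 0% to 20.0% of tested genes, and whether these lists differed was not tested. The ATF4 and amino acid response list had 1 rise and 3 falls in 20 tested genes (20.0%) and the endoplasmic reticulum list 1 and 1 in 19 (10.5%), beside 13.1% of all genes. Of 14 heat shock, 14 NRF2 and 13 p53 target genes 0 passed limma's threshold, and Cdkn1a, Hmox1 and Hspa1b were at 0.57, -1.27 and -1.06. In the endoplasmic reticulum list Edem1, which sends misfolded proteins for disposal, rose, at 5939 and 6277 with dorsomorphin, against 2120.4 and 1931 in control cells (1.59 ± 0.20, adjusted p = 0.0126), with its other probe set at -0.24. Sel1l, of the same disposal route, fell by 1.81 with 4 others from -2.03 to 1.87, and the chaperone gene Hspa5 was at 0.35. Edem1 and Sel1l were called under all 4 scalings. Atf4, the factor of the amino acid response, rose to 9268 and 8986 with dorsomorphin, against 4602 and 4455 in control cells (1.01 ± 0.22, adjusted p = 0.0402), while its target Trib3 fell by 2.18 and its targets Asns and Ddit3 did not pass (0.24 and 0.76). Psph, of serine synthesis, and Aldh18a1, of proline synthesis, fell by 1.48 and 1.39. Atf4 lost its call after cyclic loess, as did Trib3, Psph and Aldh18a1. Among 27 autophagy and lysosome genes 1 rose and 4 fell (18.5%, beside 13.1% of all genes called). After cyclic loess 1 rise and 1 fall were called in this list. The gene that rose was Atg12, a conjugation factor (1.11, under all 4 scalings). Those that fell were the protease genes Ctss (-2.10) and Ctsa (-1.48), the conjugation enzyme gene Atg7 (-1.23) and the lysosomal channel gene Mcoln1 (-1.23).

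In the ribosomal, translation, proteasome and respiration lists 0% to 12.5% of tested genes were called, beside 13.1% of all genes. Of 31 cytosolic ribosomal protein genes and 35 proteasome genes 0 passed limma's threshold in either direction. Of 30 ribosome biogenesis genes 1 fell (3.33%, beside 13.1% of all genes called), Polr1a (-1.59, other probe sets -1.39 and 0.22). Of 22 translation factors 1 rose (4.5%, beside 13.1% of all genes called). This was Eif3b, at 4112 and 3829 with dorsomorphin, against 1762.5 and 1719 in control cells (limma, 1.19 ± 0.21, adjusted p = 0.0242), called under all 4 scalings. Relative to all genes the ribosomal protein median was 0.30 as deposited and -0.54 after cyclic loess, a change of sign between the scalings. Of 32 oxidative phosphorylation subunits 4 fell (12.5%, near the 13.1% of all genes called), Cox5b (-1.62), Ndufc1 (-1.77), Atp5c1 (-1.57) and Sdha (-0.96). Of these, 0 was called under all 4 scalings. Other probe sets went the other way for Atp5c1 (1.52) and, at their highest, for Cox5b (0.56) and Sdha (0.62). Mrpl17 (-1.96, other probe sets -1.41 and 0.37) and Mrps2 (-1.59) fell among 25 mitochondrial ribosomal genes (8.0%, beside 13.1% of all genes called). Beside Rnf157, the list of ligases and kinases linked to anergy, an unresponsive state of T cells, had 1 fall in 14 genes. It was that of Rnf128, the GRAIL ligase (-1.70). With Rnf157 this made 14.3% of the list, near the 13.1% of all genes called, and Cblb was at 0.17.

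Markers of other cells, apart from erythroid and platelet markers, and interferon genes had mostly negative differences. All 22 tested myeloid and dendritic cell markers had a negative difference as deposited and 18 after cyclic loess, beside 59.7% and 47.9% of all genes. Of these markers 3 fell (13.6%, near the 13.1% of all genes called). Their median was -1.10 relative to all genes and -0.63 after cyclic loess. Csf1r, a growth factor receptor of macrophages, was at 178 and 124 with dorsomorphin, against 594 and 601 in control cells, Cybb, an oxidase subunit of phagocytes, at 93.1 and 74.2 with dorsomorphin against 400.1 and 416, and Adgre1, a macrophage surface receptor, at 94.8 and 98.2 with dorsomorphin against 194 and 335. Their differences were -2.005, -2.30 and -1.40, that of Cybb called under all 4 scalings. Of 9 natural killer and CD8 T cell markers 2 fell (22.2%, beside 13.1% of all genes called). Klrd1 was at 306 and 199.6 with dorsomorphin and 1194 and 973 in control cells. Gzma was at 235 and 205 with dorsomorphin and 535 and 538 in control cells. Gzma was the 1 of 12 granule genes that fell (8.33%, beside 13.1% of all genes called). Of 11 B cell markers 1 fell (9.09%, beside 13.1% of all genes called), Ms4a1 (-1.53). Of 9 erythroid and platelet markers 0 passed limma's threshold in either direction, and 5 differences were negative as deposited and 2 after cyclic loess. Among 29 interferon-stimulated genes 27 differences were negative as deposited and 27 after cyclic loess. Of these genes 1 fell (3.45%, beside 13.1% of all genes called), and the median was -0.80 relative to all genes. Ifi204, an innate sensor, was at 1.29 and 8.17 with dorsomorphin, against 166 and 262 in control cells, at least 5.59-fold lower, and Irf7 and Ifih1 were at -1.58 and -1.95 without passing. Ctss and Capg, named above in other lists, are also expressed by myeloid cells, and the part of such cells in their falls was not tested.

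The same compound was given to stimulated cells, on the other 4 arrays, which share the fit and its estimate of spread with the comparison above. With only the 4 unstimulated arrays in the fit, 67 genes rose and 816 fell in unstimulated cells. In stimulated cells, in the fit over all 8 arrays, 1358 genes rose with dorsomorphin (9.71%) and 1738 fell (12.4%), 22.1% in all. Of the 268 genes that rose in unstimulated cells 138 also rose in stimulated cells (51.5%, and 10.2% of the rises there), 5 fell and 125 did not pass. Of the 1557 that fell, 630 also fell (40.5%, and 36.3% of the falls there), 41 rose and 886 did not pass. The sign was shared by 89.9% of the rises, where 52.9% of all genes were higher in stimulated cells, and by 81.3% of the falls, where 47.1% were lower. With calls made after cyclic loess, 81.9% of the rises and 85.2% of the falls shared the sign.

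Members described above passed in stimulated cells in part. Of the 4 CD3 chain genes Cd3g passed, at 1723 and 1660.0 in stimulated cells with dorsomorphin, against 8456 and 8996 in stimulated cells without it (-2.37 ± 0.35, adjusted p = 0.0104). Cd247 (-1.17 ± 0.32), Cd3e (-1.59 ± 0.46) and Cd3d (-0.24 ± 0.23) did not pass there (limma, adjusted p = 0.0502, 0.0583 and 0.503). Cd5 and Gimap8 fell in stimulated cells (-1.97 and -1.64), while Thy1, Itgae and Dapl1 did not pass (-0.47, -1.03 and -0.42). For these 9 genes the test of the difference between the states did not pass. Rcan1 had 59.0 and 80.6 in stimulated cells with dorsomorphin, against 505 and 653 without it (-3.06 ± 0.26, adjusted p = 0.00576). Among the largest falls shared by both states were Tacc2, a centrosomal gene, and Eif2ak4, the amino acid sensing kinase, each with all dorsomorphin arrays under the floor. Tacc2 was at 3.38 and 2.79 with dorsomorphin, against 164.5 and 134 in unstimulated control cells, at least 3.99-fold lower, and at 5.88 and 9.88 in stimulated cells with dorsomorphin, against 1729 and 2109.5 without it. Eif2ak4 was at 13.1 and 7.66 with dorsomorphin and 314.5 and 289.9 in unstimulated control cells, at least 8.10-fold lower, though its other measured probe set stood at 0.35. Tacc2 was brighter in stimulated than in unstimulated cells without dorsomorphin, and under the floor in both states with it. Of the 8 largest shared rises, those above the floor in all groups were Auh (log2 difference 2.37 in unstimulated and 3.99 in stimulated cells, and so for the others), Ramp3 (2.59 and 3.34), Crem (2.43 and 2.82), Taf15 (2.58 and 2.41) and Mir22hg (2.38 and 2.31). Acvr1 and Bambi rose in stimulated cells too, by 1.14 and 1.39, as did Stk11 (1.56), Tnfaip3 (2.07) and Edem1 (1.98). Id3 had -1.15 ± 0.33 there and did not pass (limma, adjusted p = 0.0579), but the difference between the states did not pass for Id3 either (-1.67 ± 0.47, adjusted p = 0.104). For Rnf157 the stimulated value was 1.55 ± 0.48 (limma, adjusted p = 0.0696) and the difference did not pass (adjusted p = 0.128).

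**Figure D4:**
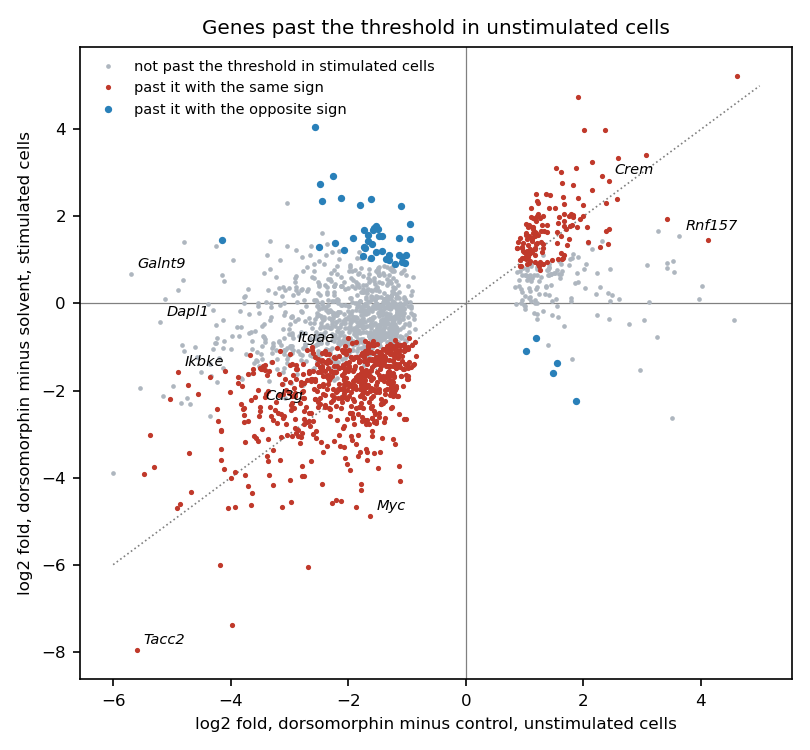
Log2 difference with dorsomorphin in unstimulated cells (x axis) and in stimulated cells (y axis) for the 1825 genes called in unstimulated cells. Red points passed with the same sign in stimulated cells, blue points with the opposite sign, and the dotted line marks equal differences. Of the 268 rises 241 lie above 0 in stimulated cells, and of the 1557 falls 1266 lie below it, while 41 falls are blue.

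The test of the difference itself, the effect in unstimulated minus that in stimulated cells, passed for 12 genes (0.0858%), 7 upward (0.0501%) and 5 downward (0.0358%), and 3687 had an unadjusted p under 0.05. Leaving out any 1 array other than stimulated replicate 1 left 0 genes past limma's threshold (2453 to 3687 at an unadjusted p under 0.05), leaving out that one gave 803, and with no filter on low values 0 passed (3642 unadjusted). Of the 12, 6 were also called in unstimulated cells. Galnt9, a glycosyltransferase, had 4.94 and 7.10 with dorsomorphin, against 323 and 289.5 in unstimulated control cells, at least 8.21-fold lower. In stimulated cells Galnt9 had 60.6 and 68.5 with dorsomorphin and 39.6 and 40.7 without it. Ift172, a carrier of the cilium, had 12.7 and 12.02 with dorsomorphin and 212 and 215 in control cells, while all 4 stimulated arrays lay under the floor, at 9.12 and 7.01 with dorsomorphin and 6.02 and 5.18 without it. Apobec1, a cytidine deaminase of RNA, fell at least 6.38-fold in unstimulated cells, and in stimulated cells it was at 75.6 and 53.7 with dorsomorphin and 18.4 and 29.2 without it, those without it being under the floor. So for these 3 genes the lower signal with dorsomorphin was seen where control cells expressed them, and stimulated cells without dorsomorphin were near or under the floor. Slc35d3, a transporter, was at 49.6 and 63.8 with dorsomorphin, against 3.52 and 3.43 in control cells, at least 1.51-fold higher, and in stimulated cells at 48.0 and 50.8 with dorsomorphin and 39.8 and 35.4 without it. Myc went the other way: in stimulated cells it had 369 and 426 with dorsomorphin, against 11413 and 12034 without it (-4.89 ± 0.21), so its fall was smaller in unstimulated cells by 3.26 log2 units (limma, adjusted p = 0.0492). With dorsomorphin the level of Myc was close in the 2 states, and the difference lay in the cells without it. The sixth of these genes carries a clone name. The remaining 6, Egr2, Spry1, Tnfsf14, Pdcd1lg2, Ccdc86 and Ripor1, did not pass in unstimulated cells. Their log2 differences there were -0.32 for Egr2, -0.13 for Spry1, -0.04 for Pdcd1lg2, 0.30 for Ccdc86 and -0.86 for Ripor1, and Tnfsf14 was at 20.4 and 33.0 with dorsomorphin, both under the floor, against 46.7 and 51.3 in control cells.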

How the data were processed

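Messenger RNA of primary mouse CD4+ T cells was measured on 8 Affymetrix arrays, 2 in each of 4 groups. The authors deposited 1 linear intensity per probe set (45101), and the submitters' processing notes name RMA and affy, without versions. Which step made these values is not settled, since they are linear, scaled, and include 363 to 884 values under 1 per array, so the order of low signals has little meaning. Each deposited intensity column has a trimmed mean of 500.0 with 2% cut at each end, so the values were scaled per array, and the arrays' number limits the precision. Probe sets were named from the platform annotation: 34945 had 1 symbol, 932 several and 9160 none, and 64 were controls. Each gene was read from the probe set with the highest mean log2 intensity over the 8 arrays. Genes above the 40th percentile (log2 5.22) on at least 2 arrays were tested with limma 3.58.1 in R 4.3.3, in 1 fit over all 4 groups with 4 residual and 1.90 prior degrees of freedom, and Benjamini-Hochberg adjustment. The script was checked on simulated data. A change is given as a bound where 1 group had both of its arrays below the floor. Figures were drawn with matplotlib 3.10.9. Named genes were the 12 largest rises and the 12 largest falls with both group means above the floor, clone and accession symbols left out. Added to these were the 5 largest bounds each way, the 8 largest changes shared with stimulated cells each way and the 8 strongest differences between the states. Up to 4 called members of each of the 46 lists by smallest p, and a fixed set of Id, CD3 and signalling genes, were also named. Other list members, and genes named for not passing, were chosen after their values were seen. The members and lists were chosen with earlier results of these data known. Alternatives were other scalings, filters, an offset, the mean of probe sets, other variance settings, 4 arrays alone, a replicate block and leaving out each array.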

Additional observations from a re-analysis of the deposited data

Results flagged for a closer look

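For 5 named genes the effect of dorsomorphin differed between unstimulated and stimulated cells by limma's test of the difference itself, the unstimulated minus the stimulated log2 difference. It was -6.37 for Galnt9, -5.61 for Apobec1, -4.63 for Ift172, 3.62 for Slc35d3 and 3.26 for Myc. The first 4 had a group under the floor, so these sizes rest on dim values, and Myc was measured above it in all 4 groups. The calls were lost (0 genes, limma; 2453 to 3687 at an unadjusted p under 0.05) when any 1 array other than stimulated replicate 1 was left out, with no filter on low values (3642), and with the replicate block (4477).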

How the results depend on the processing

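Counts of calls moved with the processing, while 0 calls turned round except 2 under the mean of all probe sets. The 268 rises became 67 with only the 4 unstimulated arrays, 2190 with median centring, 409 with cyclic loess, 106 with no filter, 586 with the 60th percentile filter, 105 with the mean of all probe sets and 706 with trend and robust variance. The 1557 falls became 816, 596, 736, 821, 2382, 739 and 2397 under the same settings, and 918 with median-deviation centring, which was chosen after seeing the data. Leaving out 1 array gave 0 to 78 rises and 0 to 1094 falls, 1000 to 2648 calls in stimulated cells and 0 to 803 genes whose effect differed between the states. The 12 such genes became 23 with median centring, 204 with cyclic loess, 0 with no filter (3642 at an unadjusted p under 0.05 by limma), 1867 with the 60th percentile filter, 910 with an offset of 16, 2 with the mean of all probe sets and 2036 with trend and robust variance. The median of all genes was 0.596, 0.051 and 0.046 with median centring, cyclic loess and median-deviation centring, and -0.32 to -0.162 with 1 array left out. The labels give the replicate numbers no shared source, and replicate deviations correlated between groups at 0.069 to 0.178, all positive but not all over 0.1, so the numbers were not used as pairs. Some probe sets did split by number in all 4 groups, such as Alas2 (46.4 and 528 for replicates 1 and 2 with dorsomorphin, 3.37 and 541 in control cells) and the poly-A spike-in control DapX at its 5′ probe set (log2 11.58 and 10.21 with dorsomorphin, 11.49 and 9.72 in control cells), as a hint from the data. With the replicate block limma called 393 rises, 1924 falls, 3640 genes in stimulated cells and 0 differences between the states (4477 at an unadjusted p under 0.05). Signs reversed for Dock8 (-0.001), Nfatc2 (0.531), Sel1l (0.105), Smad7 (-0.031) and Tsc1 (0.838) with the mean of all probe sets, and for Prkaa1 (0.053) with median centring. Of 144 called named genes, 99 kept the call after cyclic loess, 90 after median centring and 64 with the mean of all probe sets. The cause of these changes was not tested. With 2 arrays per group, a gene that did not pass may still differ.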
